A study of Mus musculus with 6 samples.

Results

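A set of 35 genes that mark T cells, or that carry the signal of the T cell receptor, was followed in whole mouse lung after lipopolysaccharide (LPS), a bacterial outer membrane glycolipid used to provoke acute lung inflammation. The members were chosen by name from textbook roles, as rows of the expression tables whose symbol is in the set. All 35 were found among the 23183 genes of the tables. RNA was measured by sequencing in 6 libraries of lung from mice of C57BL/6 background, 3 after saline into the trachea (labelled wild type) and 3 after LPS into the trachea. The titles call every LPS library wild type, but the genotype field reads LCN2-/- for LPS 1 and LPS 2 and LCN4-/- for LPS 3. Lcn2 RNA, at 13.60, 13.29 and 13.82 in LPS 1, LPS 2 and LPS 3 and 8.20 to 11.28 in saline, goes against a loss of that transcript. If the genotype field holds, genotype and LPS cannot be told apart in any value given here. The sources used here give no age, dose or time after LPS. They do not say whether each library is a separate animal, so the p-values cover only the spread among these libraries, and that spread may be technical.

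A T cell recognises antigen through a clonal receptor that cannot signal by itself. The CD3 chains and the zeta chain (Cd247) carry the signal inward, and the co-receptor CD4 or CD8 brings the kinase LCK. The kinase ZAP70 phosphorylates the adaptor LAT, and costimulation by CD28 or restraint by CTLA4 sets the strength of the response. The lung holds resident and circulating T cells, and LPS inflammation of the airspaces brings in neutrophils and monocytes first. In RNA from whole tissue, fewer cells of a type and less RNA per cell cannot be told apart.

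All values below are as deposited, on the scale log2(expression value + 1). Differences are LPS minus saline on that scale, which understates the change of genes with low values. That the expression value is per gene length was read from the values and is not stated in the labels, so an order of levels between genes rests on that reading. Depth is unknown. LPS 3 has no value for Zap70, Tcf7, Thy1, Trat1, Themis, Ubash3a and Txk, so these 7 members rest on 2 LPS libraries.

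The members divided unevenly, including genes that lie next to each other. Promoter sequences are shown for the 3 CD3 genes that share a short stretch of chromosome 9, where Cd3e was lower and Cd3d and Cd3g were not, and for Ctla4, the member that was higher. The bases run 5′ to 3′ on the gene's strand and end 20 bases before the start, from RefSeq (GRCm38.p6, the mm10 build). For Ctla4 that start lies inside the gene as GENCODE annotates it, from 60887000 to 60915832. Capitals mark matches on either strand to the core letters of 4 motifs of T cell transcription factors (TCF/LEF, GATA, NFAT and RUNX).
Cd3e, chr9:45009632-45009861, minus strand: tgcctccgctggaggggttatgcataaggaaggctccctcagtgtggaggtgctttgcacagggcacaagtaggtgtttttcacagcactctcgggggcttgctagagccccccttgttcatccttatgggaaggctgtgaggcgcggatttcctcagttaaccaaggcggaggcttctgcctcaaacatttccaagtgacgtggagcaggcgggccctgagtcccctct
Cd3d, chr9:44981536-44981765, plus strand: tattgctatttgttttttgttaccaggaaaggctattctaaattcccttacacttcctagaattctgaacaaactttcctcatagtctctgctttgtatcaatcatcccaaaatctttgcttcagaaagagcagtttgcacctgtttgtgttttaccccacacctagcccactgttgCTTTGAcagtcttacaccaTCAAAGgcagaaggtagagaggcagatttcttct
Cd3g, chr9:44980452-44980681, minus strand: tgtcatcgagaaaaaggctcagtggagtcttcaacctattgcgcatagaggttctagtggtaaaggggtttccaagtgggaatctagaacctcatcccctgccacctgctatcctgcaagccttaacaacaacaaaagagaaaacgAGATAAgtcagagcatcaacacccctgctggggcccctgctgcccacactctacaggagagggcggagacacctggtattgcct
Ctla4, chr1:60908775-60909004, plus strand: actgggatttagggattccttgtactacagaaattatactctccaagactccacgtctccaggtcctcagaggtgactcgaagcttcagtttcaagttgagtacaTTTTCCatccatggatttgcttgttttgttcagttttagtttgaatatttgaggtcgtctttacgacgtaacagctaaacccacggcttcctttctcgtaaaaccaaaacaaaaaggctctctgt

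The Cd3d window held 2 TCF/LEF matches, that of Cd3g 1 GATA match and that of Ctla4 1 NFAT match. The Cd3e window held none of the 4 motifs, which says only that these letters are not in it. A promoter was matched for 24 of the 35 members. Several members have more than 1 annotated start, so shares are given per gene and then per promoter (38 of the members and 32851 in all). In the 250 bases before a start, 6 of the 24 (25.0%) held the TCF/LEF letters CTTTGA on either strand, against 15.8% of 27025 genes, and per promoter 15.8% against 13.8%. The NFAT letters GGAAAA were in 9 (37.5%, against 22.9%; per promoter 31.6% against 20.4%). The RUNX letters TGTGGT were in 5 (20.8%, against 15.9%), but per promoter the share was below that of all, at 13.2% against 14.0%. The GATA letters AGATAA were in 3 (12.5%, against 11.4%), and per promoter likewise below, at 7.9% against 9.99%. No match overlapped one of another motif in the 4 windows printed. These matches are descriptions of sequence and are not binding sites.

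Of the 35 members, 28 passed the filter on low values (an expression value of 1 or above in at least 3 libraries) and were tested in a limma fit over all 13116 genes. In LPS, 11 of the 28 were lower (39.3%; 24.3% of all genes tested were lower), 1 was higher (3.57%; 25.7% of all genes) and 16 did not pass the adjusted p threshold of 0.05. Of all genes tested, 50.1% were called in either direction. The members that fell were Cd2, Cd4, Cd3e, Tcf7, Gata3, Cd96, Cd8b1, Cd247, Cd5, Skap1 and Cd28, and the member that rose was Ctla4. The median difference of the 28 was -0.44, against 0.02 over all genes tested. The share of members lower depends on the scaling between libraries: after quantile normalization it was 21.4%, against 21.2% of all genes. Libraries of the groups did not overlap for 15 of the 28 with LPS below saline (53.6%; 30.7% of all genes) and for 1 with LPS above (3.57%; 32.7% of all genes, and 63.4% in either direction). Cd28 passed the filter only through saline and Ctla4 only through LPS, so the filter favoured a difference in each. With no filter all 35 were tested. In that fit 12 were lower (17.5% of 19314 genes were) and 1 was higher (15.9% of genes were), with Themis, Ubash3a and Cd40lg added and Cd247 and Cd96 lost.

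**Figure D1:**
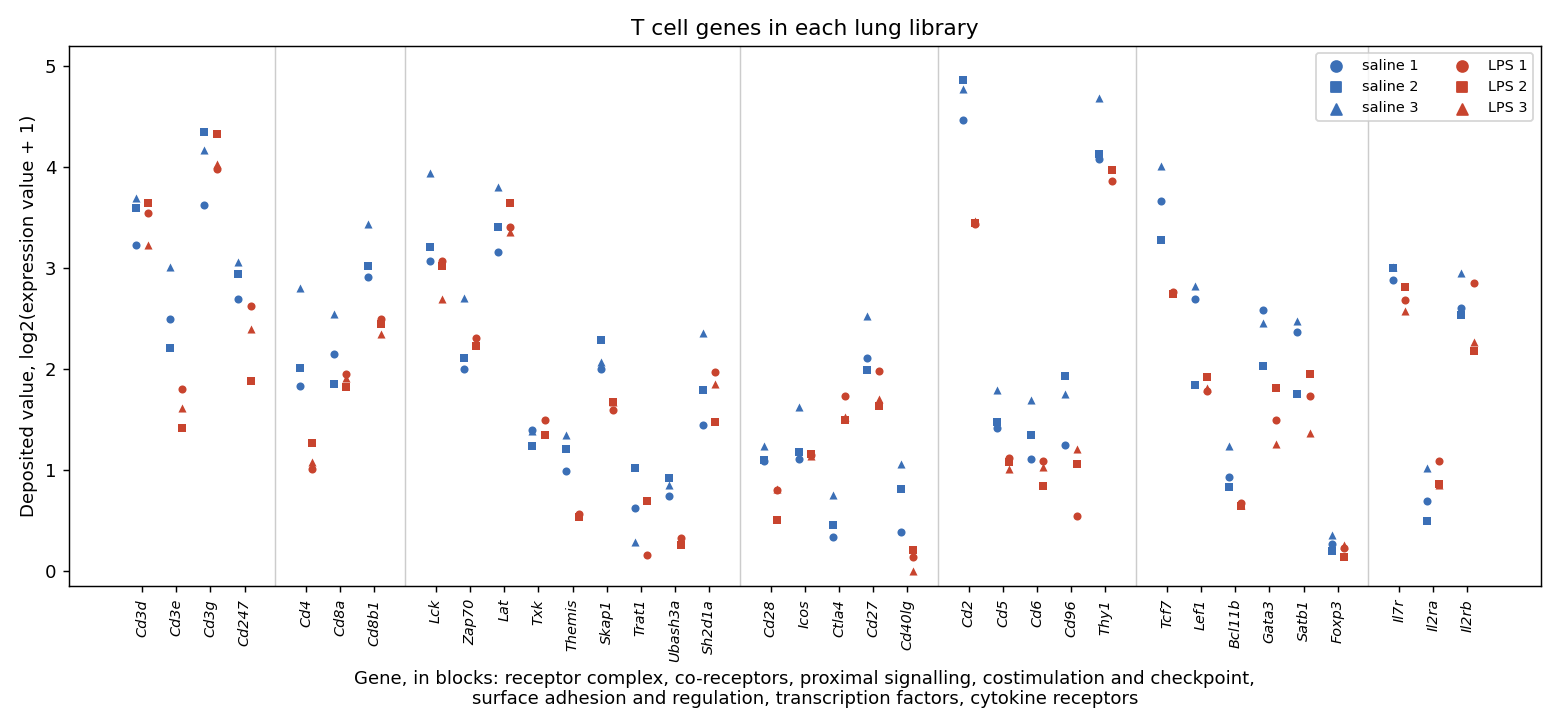
Deposited value (y axis, log2(expression value + 1)) of each of the 35 T cell genes (x axis, grouped by role) in the 3 saline (blue) and 3 LPS (red) libraries, with a point per library; the 7 genes with no value in LPS 3 have 5 points. Cd2, at 4.47 to 4.86 in saline and 3.43 to 3.47 in LPS, shows the widest fall, and Ctla4 is the gene whose 3 LPS points all lie above saline.

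The tissue and the libraries set limits on these values. Lung markers were high, with Sftpc, the surfactant protein gene of alveolar type 2 cells, at 13.46 to 14.00 and Scgb1a1, the club cell secretory protein gene, at 15.90 to 17.32 in the 6 libraries. Saline 3 was the highest saline library for 27 of the 35 members and saline 1 the lowest for 22. Glycam1, a mucin made by the high endothelial venules of lymph nodes, was 4.09 in saline 3, against 0.02 and 0.01 in saline 1 and saline 2 and 0.17, 0.00 and 0.33 in LPS. Cr2, a gene of B cells and follicular dendritic cells, was also highest in saline 3, at 3.46 against 2.24 and 1.85. Of the 6 lymph node stroma markers tested 2 rose (33.3%, against 25.7% of all genes tested) and 4 fell (66.7%, against 24.3%). Those changed most were Cxcl13 (2.80), Cr2 (-2.16), Ccl19 (2.03) and Ccl21a (-1.68). Cr2 and Chst4, both among those that fell, passed the filter on low values only through saline, which favoured their falls. The part of lymph node tissue in the differences was not tested. Without saline 3, 7 members were lower (25.0%, against 20.4% of all genes) and 1 was higher. The median difference of the 28 members tested was then -0.26, against -0.44 with all 6 libraries. Of the 12 thymocyte markers, the defining genes Rag1, Rag2, Dntt, Ptcra and Arpp21 were near 0 in every library, the highest being Dntt at 0.254 in LPS 1. Of the 5 tested, 3 fell (60%, against 24.3% of all genes tested): Cd1d1 (-0.86), Rmnd5a (-0.56) and Tcf7, which is a member.

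Markers shared by all leukocytes were measured beside the T cell genes. Ptprc, the common leukocyte phosphatase CD45, was 5.26, 5.61 and 5.71 in saline and 6.16, 5.62 and 5.62 in LPS, and it did not pass (0.27, SE 0.20; limma adjusted p = 0.280). Of 8 pan-leukocyte genes 5 rose (62.5%, against 25.7% of all genes tested) and 0 fell (24.3% of all genes tested did). Among those that rose were the surface antigen gene Cd52 (1.48), Cd53 (1.28), the actin regulator gene Coro1a (0.97) and the GTPase gene Rac2 (0.92). Of 11 neutrophil markers tested 9 rose (81.8%, against the same 25.7%) and 0 fell. The largest rises were those of the decoy receptor gene Il1r2 (4.81), the granule gene Ngp (4.45) and the alarmin genes S100a8 (4.18) and S100a9 (4.12). The summed expression of the neutrophil list before the log was 711 to 2055 in saline and 9822 to 25531 in LPS. For the 28 T cell members with a value in all 6 libraries that sum was 122, 140 and 174 in saline and 104, 104 and 92.8 in LPS.

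Receptor complex. Cd3e, the epsilon chain that pairs with the gamma and delta chains, was 2.50, 2.21 and 3.01 in saline and 1.80, 1.41 and 1.62 in LPS. Every LPS library lay below every saline library. The difference was -0.96 (SE 0.21; limma adjusted p = 0.00527), and the mean expression value before the log in LPS was 0.405 of that in saline. Cd247, the zeta chain that holds most of the signalling motifs, was 2.69, 2.95 and 3.06 in saline and 2.62, 1.88 and 2.40 in LPS. The groups lay apart, though LPS 1 and saline 1 nearly met, and the difference was -0.60 (SE 0.20; limma adjusted p = 0.0338). It no longer passed without saline 3 (adjusted p = 0.106), without LPS 2 (0.125), without saline 2 (0.0795) or with quantile normalization (0.142), and the call ended in 9 of 16 alternatives in all. Exons of Cd247 overlap Pou2f1, a gene on the opposite strand. Pou2f1 was 2.34, 1.85 and 2.30 in saline and 1.46, 1.63 and 1.55 in LPS. The part of Pou2f1 in the Cd247 values was not tested.

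Cd3d and Cd3g, the delta and gamma chains, overlapped between the groups. Cd3d was 3.23, 3.60 and 3.69 in saline and 3.55, 3.65 and 3.23 in LPS, a difference of -0.03 with a 95% interval of -0.43 to 0.36. Cd3g, the most abundant of the 4 chains in every library, was 3.62, 4.35 and 4.17 in saline and 3.98, 4.33 and 4.03 in LPS, a difference of 0.07 with a 95% interval of -0.39 to 0.52. With libraries scaled to equal sums, where 63.6% of all genes were lower, Cd3d (-0.77; limma adjusted p = 0.00475) and Cd3g (-0.69; limma adjusted p = 0.0101) were called lower too. The 3 genes lie together on chromosome 9 (mm10, GENCODE M21): Cd3g from 44969572 to 44980431 on the minus strand, Cd3d from 44981786 to 44987339 on the plus strand and Cd3e from 44998740 to 45009627 on the minus strand. Cd3g and Cd3d are read away from each other from starts 1355 bases apart, and Cd3e starts 27841 bases from the start of Cd3d.

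The CD3 chains were also compared as ratios within each library, which no scaling factor between libraries can change. Cd3e over Cd3d, in expression values before the log, was 0.554, 0.326 and 0.594 in saline and 0.233, 0.145 and 0.247 in LPS. Each LPS ratio was below each saline ratio, 2.34-fold lower on average. Cd3e over Cd3g was 0.410, 0.187 and 0.416 in saline and 0.168, 0.0871 and 0.135 in LPS, also without overlap and 2.53-fold lower. Cd3d over Cd3g was 0.740, 0.573 and 0.700 in saline and 0.721, 0.602 and 0.546 in LPS, so that these libraries overlapped (exact two-sided permutation p = 0.6, n = 3 and 3). With 3 against 3 libraries the exact permutation test cannot go below p = 0.1, which both ratios of Cd3e reached; over the 10 ratios compared here the adjusted value is 0.125. The ratios were chosen with the values of the genes known. An antisense transcript, Gm48719, overlaps an exon of Cd3e in the annotation, and the sources used here do not say whether counting used strand.

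Co-receptors. Cd4, which marks helper and regulatory T cells and in mice also some dendritic cells, was 1.83, 2.01 and 2.80 in saline and 1.01, 1.27 and 1.08 in LPS. The groups did not overlap, and saline 3 stood above the other saline libraries. The difference was -1.10 (SE 0.24; limma adjusted p = 0.00496), and the mean expression value before the log went from 3.85 to 1.18. Cd8b1, the beta chain of the co-receptor of cytotoxic T cells, was 2.91, 3.02 and 3.44 in saline and 2.50, 2.45 and 2.34 in LPS. It fell by 0.69 on the log2 scale (SE 0.17; limma adjusted p = 0.00768), again with no overlap. Cd8a, the alpha chain, which dendritic cells and some innate lymphocytes also express, was 2.15, 1.85 and 2.54 in saline and 1.95, 1.83 and 1.91 in LPS. Here the groups overlapped, and the difference of -0.29 had a 95% interval of -0.70 to 0.13.

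Within libraries, Cd4 over Cd8a was 0.743, 1.16 and 1.24 in saline and 0.354, 0.553 and 0.402 in LPS, 2.38-fold lower in LPS with no overlap (exact permutation p = 0.1, n = 3 and 3, the smallest this design allows; 0.125 adjusted over the 10 ratios). Cd8b1 over Cd8a was 1.90, 2.71 and 2.04 in saline and 1.62, 1.75 and 1.48 in LPS, with the same exact p and a smaller change of 1.36-fold. Cd8b1 and Cd8a are neighbours on chromosome 6 with 35932 bases between them. In dendritic cell markers, 5 of 10 tested fell (50%, against 24.3% of all genes tested) and 1 rose (10%, against 25.7%). Among them were Clec9a (-1.17), Itgae (-1.01), which CD8 T cells of epithelia also express, and Batf3 (1.32). Itgae passed the filter only through saline. That list holds the members Cd4 and Il2ra, and the part of dendritic cells in the co-receptor values was not tested.

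**Figure D2:**
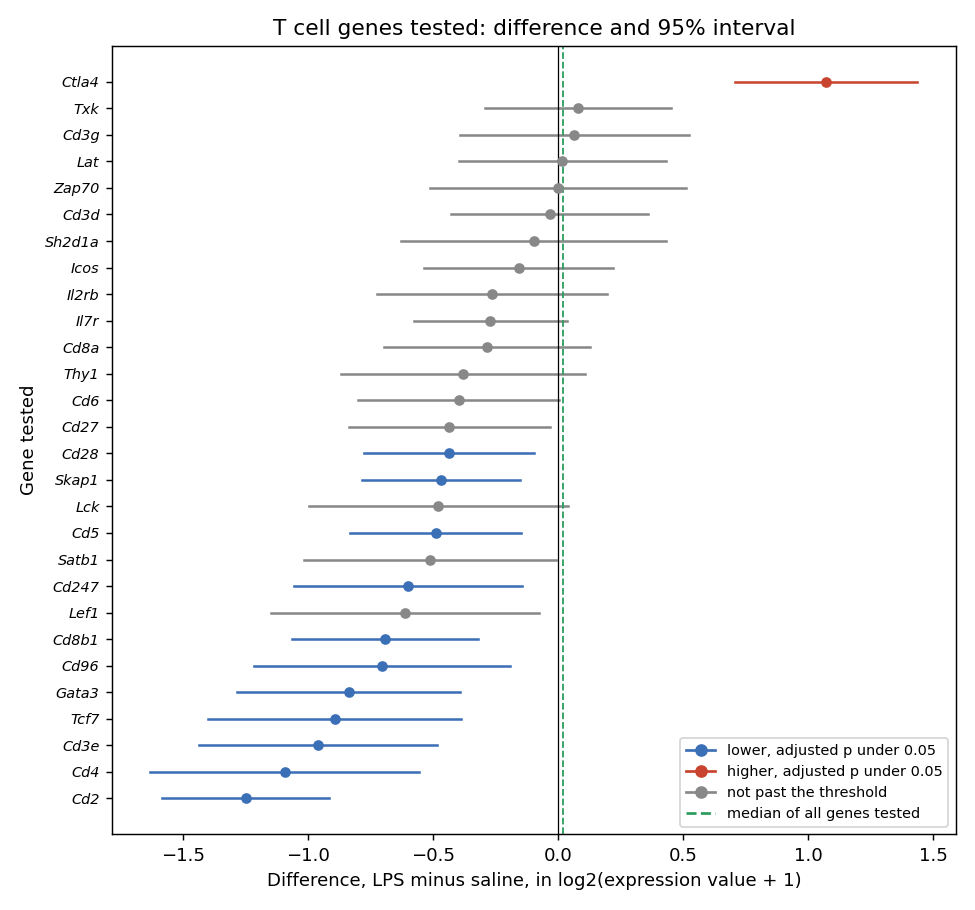
Difference between LPS and saline (x axis, log2 scale; points) with 95% limma intervals (bars) for the 28 T cell genes that passed the filter on low values (y axis), coloured by the call; the dashed line is the median of all genes tested (0.02). The genes run from Cd2 (-1.25) to Ctla4 (1.07), and 16 bars are grey.

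Kinases and adaptors. The kinases and the adaptor at the core of receptor signalling did not pass. Lck, the kinase bound to the co-receptors, was 3.07, 3.21 and 3.95 in saline and 3.07, 3.02 and 2.69 in LPS, a difference of -0.48 with a 95% interval of -0.998 to 0.04. Zap70, the kinase that docks on phosphorylated CD3 and zeta chains, was 2.01, 2.11 and 2.70 in saline and 2.31 and 2.23 in LPS, both inside the saline range, with a 95% interval of -0.51 to 0.51. Lat, the membrane adaptor on which the signalling complex assembles, was 3.16, 3.40 and 3.80 in saline and 3.41, 3.64 and 3.36 in LPS. Its difference of 0.02 had a 95% interval of -0.40 to 0.43. Lat is also expressed in mast cells and platelets, and Zap70 in NK cells. Sh2d1a, the adaptor SAP of T and NK cells (-0.10, 95% interval -0.63 to 0.43), and Txk, a TEC family kinase of T and NK cells (0.08, 95% interval -0.29 to 0.45), did not pass either.

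Skap1, a cytosolic adaptor that links the receptor to integrins, was 2.002, 2.28 and 2.07 in saline and 1.59, 1.68 and 1.68 in LPS. No library overlapped, and it fell by 0.47 on the log2 scale (SE 0.14; limma adjusted p = 0.0207). It was not called lower after quantile normalization (adjusted p = 0.497), without LPS 1 (0.0674), without LPS 2 (0.0560), or with saline 1 and 3 against LPS 1 and 2 (0.0772). The call of Skap1 ended in 5 of 15 alternatives in all. The remaining members of this group had low values and did not pass the filter. Themis, which tunes receptor signals during T cell selection, was 0.99, 1.21 and 1.35 in saline and 0.57 and 0.54 in LPS, and with no filter the adjusted p was 0.0233 (limma). Ubash3a, a phosphatase family protein that dampens receptor signals, was 0.74, 0.92 and 0.85 in saline and 0.33 and 0.26 in LPS (limma adjusted p = 0.0102 with no filter). Trat1, the adaptor TRIM of the receptor complex, scattered from 0.28 to 1.02 in saline and was 0.16 and 0.69 in LPS.

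Costimulation and checkpoint receptors. Ctla4 encodes the inhibitory receptor that competes with CD28 for its ligands on antigen-presenting cells, and is highest in regulatory and recently activated T cells. It was 0.34, 0.46 and 0.75 in saline and 1.74, 1.49 and 1.53 in LPS. All LPS libraries lay above all saline libraries. The difference was 1.07 (SE 0.16; limma adjusted p = 0.000899), and on the scale before the log the mean rose from 0.440 to 2.01, or 4.57-fold. It was called higher under all 15 alternatives in which Ctla4 could be tested, with differences of 0.70 (libraries scaled to equal sums) to 2.04 (pseudocount of 0.1) and adjusted p-values of 0.000570 to 0.0109 (limma). Ctla4 passed the filter on low values only through LPS, and all of these 15 but the fit with no filter kept that filter. The mean of Ctla4 was below the minimum of the stricter filter on low values, where it was not tested.

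Cd28, the main costimulatory receptor, was 1.09, 1.10 and 1.24 in saline and 0.81, 0.51 and 0.81 in LPS, with no overlap. It fell by 0.44 on the log2 scale (SE 0.15; limma adjusted p = 0.0371), close to the threshold, and the call ended in 10 of 15 alternatives, each of the 6 that leave out 1 library among them. Icos, the inducible costimulator, was 1.11, 1.18 and 1.63 in saline and 1.15, 1.16 and 1.14 in LPS, a difference of -0.16 with a 95% interval of -0.54 to 0.22. Cd28, Ctla4 and Icos lie in this order on the plus strand of chromosome 1 (60716800 to 60773359, 60887000 to 60915832 and 60977927 to 61000320, mm10), with 113640 and 62094 bases between the annotated genes.

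The ratio of Ctla4 to Cd28 in expression values before the log was 0.233, 0.325 and 0.500 in saline and 3.11, 4.32 and 2.51 in LPS. Ctla4 was below Cd28 in every saline library and above it in every LPS library, a change of 9.63-fold. Cd28 was below the filter minimum in every LPS library and Ctla4 in every saline library, so this ratio sets 2 genes with opposite differences against each other at low values. Against Icos the ratio was 0.225, 0.296 and 0.328 in saline and 1.92, 1.47 and 1.57 in LPS (5.89-fold), and against Cd3d 0.0313, 0.0335 and 0.0574 in saline and 0.218, 0.158 and 0.226 in LPS (5.05-fold). For each of these the exact permutation p = 0.1 (n = 3 and 3) was the smallest the design allows, 0.125 adjusted over the 10 ratios. Foxp3, the transcription factor of regulatory T cells, was 0.27, 0.20 and 0.36 in saline and 0.23, 0.15 and 0.25 in LPS, under the filter in every library. Il2ra, the alpha chain of the interleukin-2 receptor, which regulatory and activated T cells carry, was 0.69, 0.50 and 1.02 in saline and 1.10, 0.86 and 0.85 in LPS, also under the filter and with overlap.

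Cd27, a costimulatory receptor of the tumour necrosis factor receptor family, was 2.11, 1.99 and 2.53 in saline and 1.98, 1.64 and 1.70 in LPS. These values lay just apart, and the difference of -0.44 did not pass (limma adjusted p = 0.0678). Cd40lg, the ligand with which helper T cells license B cells and dendritic cells, was 0.39, 0.82 and 1.06 in saline and 0.14, 0.21 and listed at 0 in LPS. It stayed under the filter; with no filter the limma adjusted p was 0.0410.

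**Figure D3:**
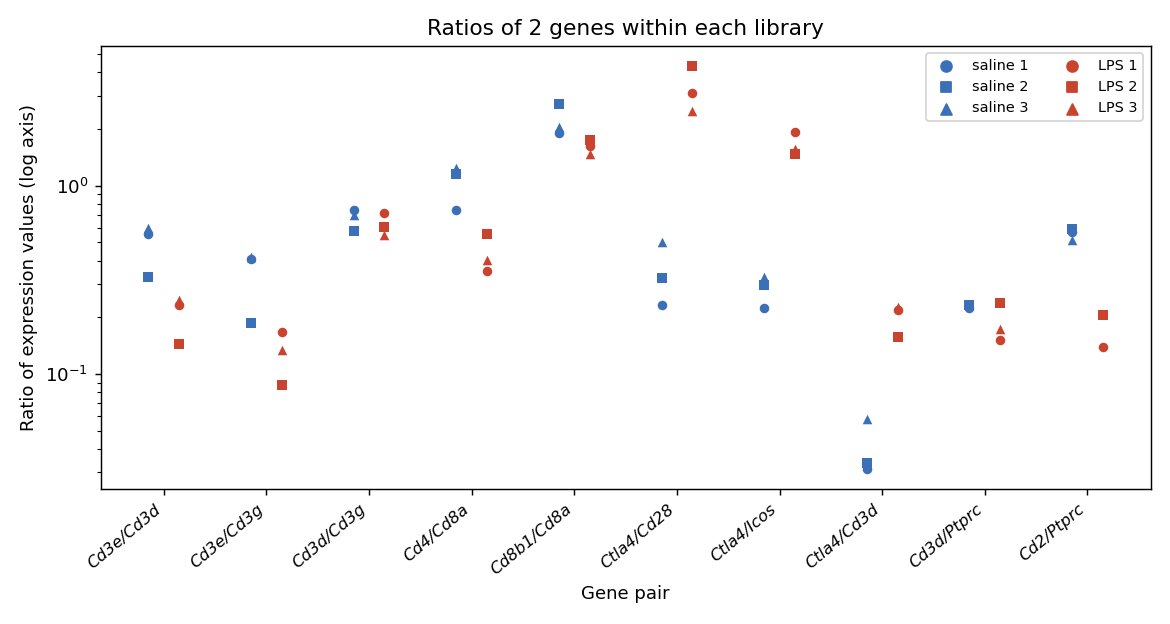
Ratio of the expression values of 2 genes, before the log, within each library (y axis, log axis) for 10 gene pairs (x axis), with saline in blue and LPS in red and a point shape for each replicate number. Ctla4 over Cd28 moves from 0.233 to 0.500 in saline to 2.51 to 4.32 in LPS, while Cd3d over Cd3g overlaps between the groups.

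Surface adhesion and regulatory receptors. Cd2, which binds CD48 on other leukocytes and strengthens T cell contacts, was 4.47, 4.86 and 4.77 in saline and 3.43, 3.45 and 3.47 in LPS. It had the highest value of the 35 members in each saline library, and its LPS libraries lay close together (3.45 ± 0.016, SD, n = 3). The difference was -1.25 (SE 0.15; limma adjusted p = 0.000305), the largest fall among the members tested on this log2 scale; before the log the LPS mean of Cd2 was 0.395 of the saline mean, and that of Cd4 0.306. Its mean expression value before the log went from 25.2 to 9.94. In mice Cd2 is also expressed by B cells and NK cells. Of 13 B cell markers tested 12 fell (92.3%, against 24.3% of all genes tested), among them Ms4a1 (-3.07), Bank1 (-2.55) and Cd22 (-2.50). Cr2, also among those that fell, passed the filter only through saline. The summed expression of the B cell list was 298 to 471 in saline, highest in saline 3, and 76.7 to 110 in LPS. The part of B cells in the Cd2 difference was not tested. Of 11 NK cell markers 0 fell (24.3% of all genes tested did) and 1 rose (9.09%, against 25.7% of all genes tested). The marker that rose was the chemokine gene Ccl5 (2.42), which T cells and other cells also make.

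Cd5, a brake on receptor signals that is also carried by a subset of B cells, was 1.42, 1.48 and 1.80 in saline and 1.13, 1.08 and 1.01 in LPS. It fell by 0.49 on the log2 scale (SE 0.15; limma adjusted p = 0.0241) without overlap, but the call ended in 7 of 15 alternatives. Among these were quantile normalization (adjusted p = 0.520) and the fits without saline 3 (0.0880), without LPS 2 (0.0655) and without LPS 3 (0.0713). Cd6, its relative on chromosome 19 with 50338 bases between the genes, was 1.11, 1.35 and 1.70 in saline and 1.09, 0.84 and 1.03 in LPS, and its difference of -0.40 did not pass (limma adjusted p = 0.0892). Cd96, an adhesion receptor of T and NK cells, was 1.25, 1.93 and 1.76 in saline and 0.55, 1.06 and 1.21 in LPS. LPS 1 was the lowest and saline 1 and LPS 3 nearly met. It fell by 0.71 (SE 0.23; limma adjusted p = 0.0281), and did not pass without saline 3 (0.0827), without saline 2 (0.0957), without LPS 1 (0.0907) or with quantile normalization (0.281). The call of Cd96 ended in 7 of 15 alternatives in all. Thy1, a surface glycoprotein that fibroblasts also make, was 4.08, 4.13 and 4.69 in saline and 3.87 and 3.97 in LPS, a difference of -0.38 with a 95% interval of -0.87 to 0.11.

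Transcription factors. Tcf7, the T cell factor of naive and memory T cells, was 3.66, 3.28 and 4.01 in saline and 2.76 and 2.75 in LPS. It was the most abundant of the 6 factors in every library with a value, and its groups lay apart. The difference was -0.89 (SE 0.22; limma adjusted p = 0.0106), with the mean expression value before the log at 11.8 in saline and 5.75 in LPS. Gata3, which T helper 2 cells, innate lymphoid cells and early T cells use, was 2.59, 2.03 and 2.46 in saline and 1.49, 1.81 and 1.26 in LPS. It fell by 0.84 on the log2 scale (SE 0.20; limma adjusted p = 0.00719) with no overlap. Other genes of innate lymphoid and gamma-delta T cells went both ways, with Areg (1.64) and Zbtb16 (0.88) higher and Sox13 (-0.96) and Blk (-1.57), which B cells also express, lower. Zbtb16 and Sox13 have no value in LPS 3 and rest on 2 LPS libraries.

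Lef1, the close relative of Tcf7, was 2.69, 1.84 and 2.82 in saline and 1.78, 1.92 and 1.82 in LPS. Saline 2 lay within the LPS range, and the difference of -0.61 did not pass (limma adjusted p = 0.0562). Satb1, a chromatin organiser of thymocytes and T cells, showed the same low saline 2, with 2.37, 1.75 and 2.47 in saline and 1.73, 1.95 and 1.36 in LPS, and did not pass (-0.51; limma adjusted p = 0.0825). Without saline 2, both were called lower (limma adjusted p = 0.00168 for Lef1 and 0.0167 for Satb1). Bcl11b, which fixes T cell identity, was 0.93, 0.84 and 1.24 in saline and 0.67, 0.65 and 0.66 in LPS; it did not pass the filter, and with no filter the limma adjusted p was 0.0596.

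Cytokine receptors. Il7r, the receptor chain for the survival signal of naive and memory T cells, was 2.88, 2.998 and 3.02 in saline and 2.69, 2.81 and 2.58 in LPS. Each LPS library was lower, by little, and the difference of -0.27 did not pass (limma adjusted p = 0.121; 95% interval -0.58 to 0.03). Il2rb, the beta chain shared by the interleukin-2 and interleukin-15 receptors and abundant on NK cells, was 2.60, 2.54 and 2.95 in saline and 2.86, 2.18 and 2.26 in LPS, with overlap (-0.26, 95% interval -0.72 to 0.20).

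Cd3d and Cd2 were also set against Ptprc within each library. Cd3d over Ptprc was 0.225, 0.232 and 0.232 in saline and 0.151, 0.239 and 0.174 in LPS, with overlap (exact permutation p = 0.4, n = 3 and 3). Cd2 over Ptprc was 0.567, 0.587 and 0.513 in saline and 0.139, 0.206 and 0.209 in LPS, 3.05-fold lower (exact permutation p = 0.1, n = 3 and 3, the smallest this design allows; 0.125 adjusted over the 10 ratios).

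Other genes of the pathway were called in both directions. Among 39 further tested genes of receptor signalling, 11 were higher (28.2%, against 25.7% of all genes tested), 14 lower (35.9%, against 24.3%) and 14 not past the threshold, with a median of -0.08. Among those with large changes were Lcp2 (2.29), the adaptor SLP-76, which myeloid cells also use, and Plcg1 (-1.75) and Cbl (-1.55), a phospholipase and a ubiquitin ligase. Many of these genes are shared with myeloid cells or B cells. Nfatc2 and Tespa1, both lower, passed the filter only through saline, which favoured their falls. Among monocyte and macrophage markers 9 of 13 rose (69.2%, against 25.7% of all genes tested) and 3 fell (23.1%, against 24.3%). Arg1 (3.90), Cd14 (3.59), Ms4a6d (3.30) and Fcgr1 (2.30) rose most. Siglecf, among those that fell, passed the filter only through saline. The part of monocytes and macrophages in the pathway list was not tested.

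Among 22 tested genes of naive T cells and T cell trafficking, 3 were higher (13.6%, against 25.7% of all genes tested). The share lower was near that of all genes, with 6 lower (27.3%, against 24.3%). The other 13 were not past the threshold, and the median was -0.16. Ikzf3 (-2.05) and Ccr6 (-1.89), both also B cell genes, and Igfbp4 (-1.63) fell. Of the genes of this list that fell, Ccr6 and Itgae passed the filter only through saline, which favoured their falls. Klf2 (1.59), which keeps T cells naive and also acts in endothelium, rose. Ccr7, a chemokine receptor that guides T cells and dendritic cells to lymph nodes, did not pass, at -0.02, and was named after its values were seen. Among 21 tested activation and effector genes, 12 were higher (57.1%, against 25.7% of all genes tested) and 1 lower (4.76%, against 24.3%). The other 8 were not past the threshold, and the median was 0.87. Nr4a3, among those higher, passed the filter only through LPS, which favoured its rise. Socs3 (3.32), Tnfrsf9 (3.27), Batf (2.18) and Nr4a1 (2.02) rose the most, and each is also induced in myeloid or stromal cells. Socs3 and Tnfrsf9 have no value in LPS 3 and rest on 2 LPS libraries, and Tnfrsf9 ran from 0.81 to 2.91 in saline. Ifng, the interferon of effector T and NK cells, was 0.20, 1.08 and 0.53 in saline and 1.07, 0.88 and 1.16 in LPS and did not pass (0.43; limma adjusted p = 0.130). It was also named after its values were seen. The gene of the list that fell was Irf4 (-1.32), a factor of activated lymphocytes and plasma cells.

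The counts rest on the scaling between libraries. The LPS libraries have larger sums of expression values, and scaling libraries to equal sums took the all-gene median from 0.02 to -0.68. Under that scaling the 28 members had a median of -1.01, which is -0.33 relative to the all-gene median. All but Zap70, Txk and Ctla4 were called lower, 25 in number (89.3%, against 63.6% of all genes), and Ctla4 was called higher (0.70; 6.08% of all genes were). With quantile normalization the members' median was -0.13, against 0.01 for all genes. There 6 members were lower, Cd2, Cd3e, Cd4, Cd8b1, Tcf7 and Gata3, and this share of 21.4% lay beside 21.2% of all genes. Cd2, Cd3e, Cd4, Cd8b1 and Gata3 were called lower under every alternative in which each was tested. Tcf7 has no value in LPS 3, so the fit without LPS 3 removed none of its values. The fits without LPS 1 or LPS 2 left it 1 LPS library and are not counted for it. Under the other alternatives that tested it, Tcf7 was called lower at all but the adjusted p threshold of 0.01.

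**Figure D4:**
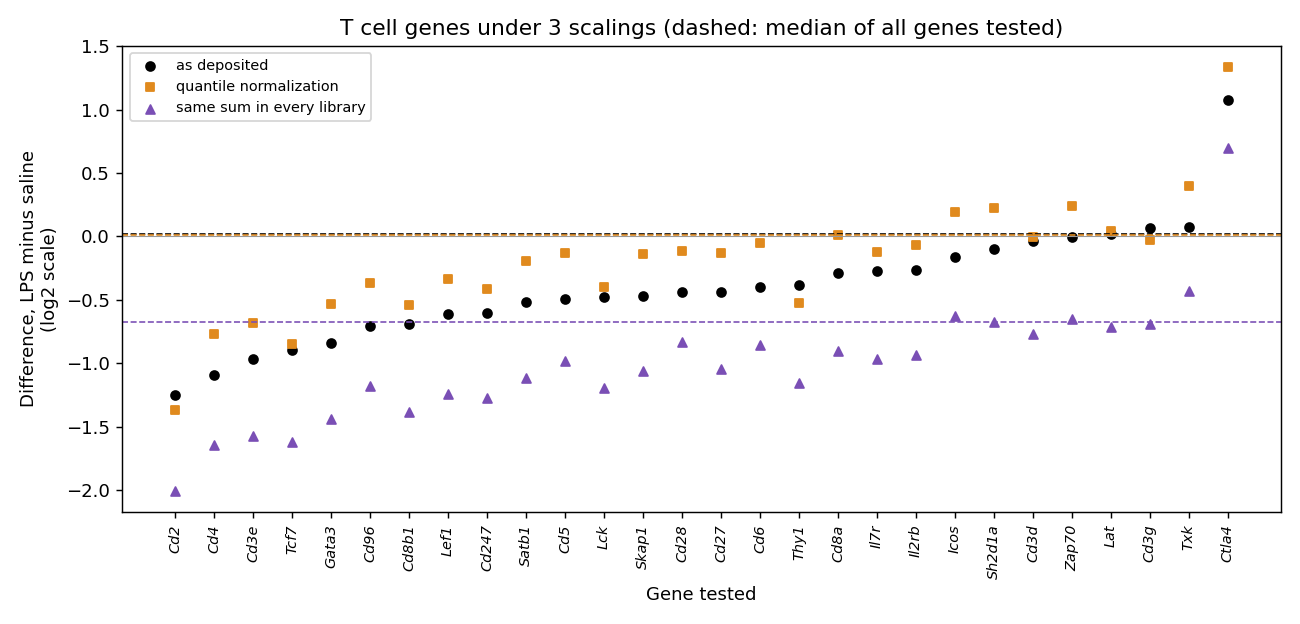
Difference between LPS and saline (y axis, log2 scale) of the 28 T cell genes tested (x axis) with values as deposited (black circles), after quantile normalization (orange squares) and with libraries scaled to equal sums (purple triangles); dashed lines are the medians of all genes tested under each. Equal sums lower all 28 genes, and Ctla4 stays above 0 under all 3 scalings (1.07, 1.33 and 0.70).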

How the data were processed

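The 6 tables hold log2 values as deposited by the authors, read from the values as log2(expression value + 1). TopHat and the mm10 build are named in the submitters' processing notes, and per the labels' protocols the library kit was directional. The sources used here name no counting tool, annotation, scaling or use of strand. Depth is unknown. Exact zeros number 3869 in each saline library, 6097 in LPS 1 and 6223 in LPS 2, and 5117 among the fewer genes (18699) of LPS 3. Values above 0 but under 0.01 number 1505 to 1936 in the saline libraries and 11 to 24 in the LPS libraries. How this arose is not given. If the saline and LPS tables were made differently, that cannot be told apart from LPS in any difference given here. No member had a value above 0 but under 0.01. LPS 3 has no value for 4484 genes.

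Libraries were grouped by title. A limma 3.58.1 fit (R 4.3.3, variance trend) was made over 13116 genes that reached 1 on the scale before the log in at least 3 libraries, with Benjamini-Hochberg adjustment over all of them and a threshold of 0.05; it was tested on simulated data. The design's branch for log2 values was used. Lists are described by counts, with no set test. Ratios used exact two-sided permutation tests. Intervals are limma 95% intervals. Named were every member and, in each list, up to 4 called genes with the largest change; exceptions are stated. The members and lists were chosen with earlier results of these data known. Gene positions are from GENCODE M21 and promoters from RefSeq. Of the members, 12 have an exon that overlaps another annotated gene. Alternatives covered filters, pseudocount, scaling, left-out libraries, a replicate block and the variance trend. Some genes that the naming rule selects are not reported here.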

Additional observations from a re-analysis of the deposited data

How the results depend on the processing

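Of the T cell members, 11 were called lower and 1 higher. With a mean value of at least 5, 4 of the 11 members tested were lower (36.4%, against 18.8% of all genes) and 0 higher. Ctla4 was not among those tested. There were 6 lower with quantile normalization, 25 with libraries scaled to equal sums and 5 at an adjusted p threshold of 0.01. At that threshold the share was 17.9%, against 15.3% of all genes. With each library left out in turn, 7 (without saline 3 and without LPS 2) to 12 were lower and 1 was higher throughout. The 7 were 25.0% of the members tested, against 20.4% of all genes without saline 3 and 18.6% without LPS 2. The 12, without saline 2, were 42.9%, against 26.2% of all genes. Of all genes, 3377 were higher and 3188 lower; 2694 and 2787 with quantile normalization (21.2% lower, against 21.4% of the members), 798 and 8343 with equal sums, 2033 and 2004 at the threshold of 0.01, 1752 lower with a mean of at least 5, and 2461 to 3660 higher and 2440 to 3436 lower without 1 library. With equal sums, where 63.6% of all genes were lower and 6.08% higher, the receptor signalling list (39 tested) had 5 higher and 23 lower. The naive and trafficking list (22 tested) had 15 lower, and the activation list (21 tested) had 7 higher and 3 lower. Without 1 library at a time these lists had 9 to 12 higher and 10 to 16 lower, 3 to 4 higher and 6 to 8 lower, and 10 to 15 higher and 1 lower. Of all genes, 18.8% to 27.9% were then higher and 18.6% to 26.2% lower. Genes with no LPS 3 value rested on 1 LPS library in the fits without LPS 1 or LPS 2. The cause of these changes was not tested, except that fewer members were tested at the stricter filter.

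Directions that turned were all of members or ratios that did not pass as reported. Cd3d turned to 0.01 without saline 2, 0.06 without saline 3, 0.089 without LPS 3 and 0.13 with saline 1 and 3 against LPS 1 and 2; with 1 library left out its lowest value was -0.17, without saline 1. With equal sums Cd3d was -0.77 and called lower. Cd3g turned to -0.029 with quantile normalization, -0.69 with equal sums, -0.15 without saline 1 and -0.04 without LPS 2. Lat turned to -0.72 with equal sums, -0.13 without saline 1, -0.0080 without saline 2 and -0.07 without LPS 2, and Txk to -0.43 with equal sums. Zap70 turned to 0.0062 with a pseudocount of 0.1, 0.24 with quantile normalization, 0.21 without saline 3 and with the replicate block, and 0.04 without LPS 2. With quantile normalization Cd8a turned to 0.012, Icos to 0.19, Sh2d1a to 0.22, the log2 ratio of Cd3d to Cd3g to 0.022 and that of Cd3d to Ptprc to 0.15. Icos was 0.0023 without saline 3, and Sh2d1a 0.15 without saline 3, 0.05 without LPS 2 and, lowest of those with 1 library left out, -0.31 without saline 1; with equal sums it was -0.68 and called lower. The alternatives for ratios were added after seeing the data.

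Deviations of same-numbered libraries from their group means correlated at -0.23, -0.08 and -0.25 across 10295 genes. Those of libraries with different numbers ran from -0.01 to 0.22. Deviations within a group are not independent of each other, so these values do not settle whether the samples were paired. With the replicate block, 8 members were lower (28.6%, against 20.01% of all genes) and 1 higher. Of all genes 2793 were then higher and 2624 lower.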
